A study of Mus musculus with 12 samples.

Results

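The 9 genes described here write, read out or remove DNA methylation: Tet1, Tet2, Tet3, Dnmt1, Dnmt3a, Dnmt3b, Uhrf1, Tdg and Mbd4. They were chosen by name, and each matched 1 of the 49315 genes in the count table. All 9 passed the filter on low counts and were among the 20290 genes tested.

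DNA methylation in mammals sits mostly on the cytosine of CpG dinucleotides. DNMT3A and DNMT3B place it on unmethylated DNA, and DNMT1 copies it onto the new strand after replication, guided there by UHRF1, which binds CpG sites methylated on only one strand. TET1, TET2 and TET3 oxidise methylcytosine stepwise, TDG excises the most oxidised forms so that base excision repair can put back a plain cytosine, and MBD4 is a second glycosylase that binds methylated CpG and removes mismatched thymine. Loss of TET2 or DNMT3A in blood stem cells is a common origin of clonal hematopoiesis (CH), the outgrowth of one mutant blood lineage, whereas neurons and glia express these genes from their own intact copies.

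Bulk RNA-sequencing was performed on the brains of 12 male mice at 14 d after a 30 min occlusion of the middle cerebral artery, 6 mice per group. Both groups were CD45.1 Pep Boy recipients with intact Tet2, 8 to 12 weeks old at transplant, that received 11 Gy of head-shielded irradiation, 90% CD45.1 Tet2+/+ bone marrow (BM) cells and 10% CD45.2 BM cells, with the stroke 8 to 10 weeks later. The CD45.2 cells were Tet2-/- in the Tet2-KO group and Tet2+/+ in the WT group, so the groups differ in the donor of a minority of the marrow, and every brain cell of the recipient kept Tet2. The study calls the tissue whole brains in one place and hemispheres in another, and the treatment entry of the 6 Tet2-KO samples names control stem cells while their titles and genotype entries say knockout, which was followed here. Total counts per library ran from 12000261 to 15340787 with WT marrow and from 12625047 to 21049763 with Tet2-KO marrow. Levels are given as CPM, that is read counts divided by the TMM-corrected library size, and every log2 fold change is Tet2-KO over WT.

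None of the 9 genes passed an adjusted p of 0.05 (quasi-likelihood test of edgeR, Benjamini-Hochberg over all tested genes), against 5 of all tested genes or 0.0246%. The adjusted p of the 9 genes lay between 0.161 and 0.934. Without adjustment 3 of them had a p below 0.05, Uhrf1, Dnmt3b and Dnmt3a, all with lower means in the Tet2-KO group, where 12.2% of all tested genes were lower and 10.8% higher by that measure. The DESeq2 Wald test called no member either, where it called 4.32% of its tested genes, and had 2 members below an unadjusted p of 0.05, beside 21.8% of its genes. The same held for limma-voom, with no member among the 9.18% of genes it called and 2 members among the 26.2% with an unadjusted p below 0.05. In none of the 9 genes did the libraries of the groups separate fully, which 0.641% of tested genes did with the Tet2-KO group lower and 0.453% with it higher. The absolute log2 fold change was below the median over all tested genes, 0.12, in 6 of the 9. The plot of levels by brain shows how narrow the spread of most members was, and the plot of fold changes sets their intervals side by side.

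**Figure D1:**
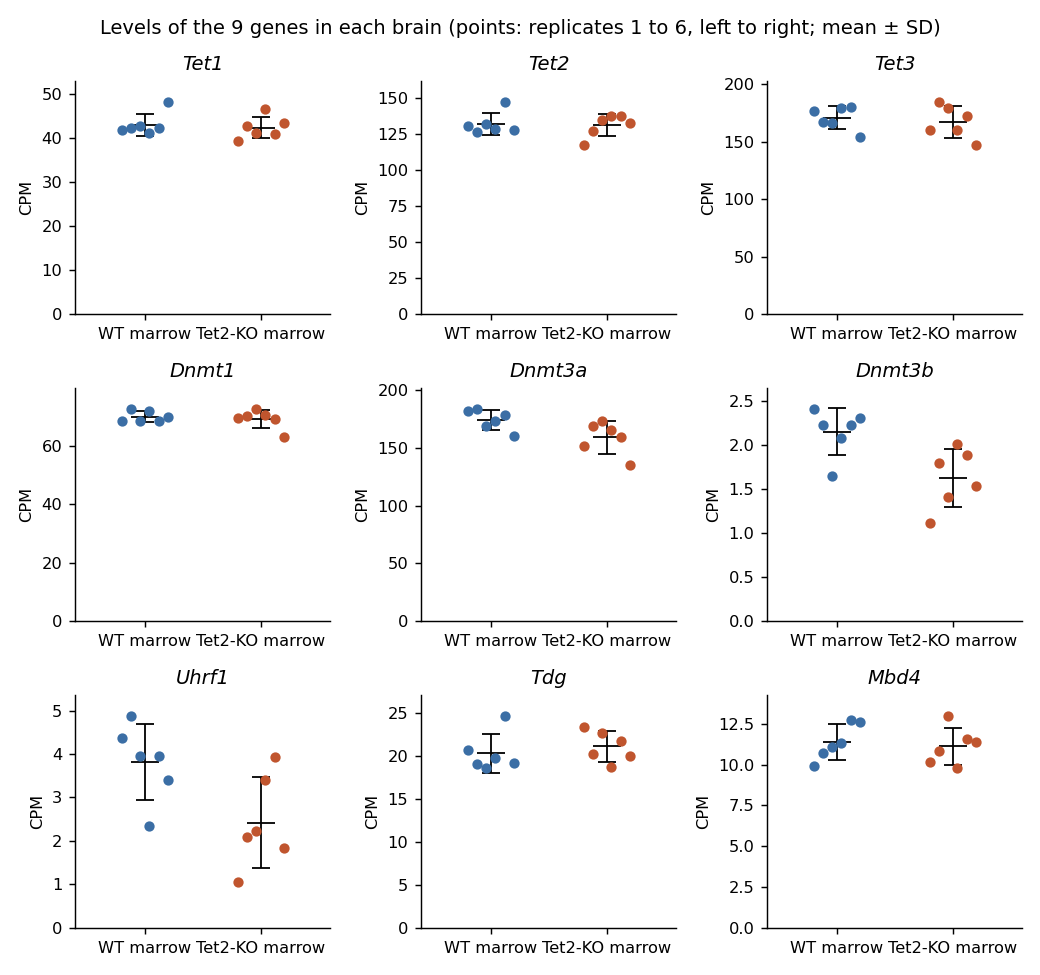
CPM of each of the 9 genes (y axis, linear from 0) in the 6 brains with WT marrow and the 6 with Tet2-KO marrow; points are single brains, bars the mean ± SD. The groups overlap in all 9 panels, and the panels of Uhrf1, Dnmt3b and Dnmt3a hold 4, 3 and 3 Tet2-KO brains below every WT brain.

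**Figure D2:**
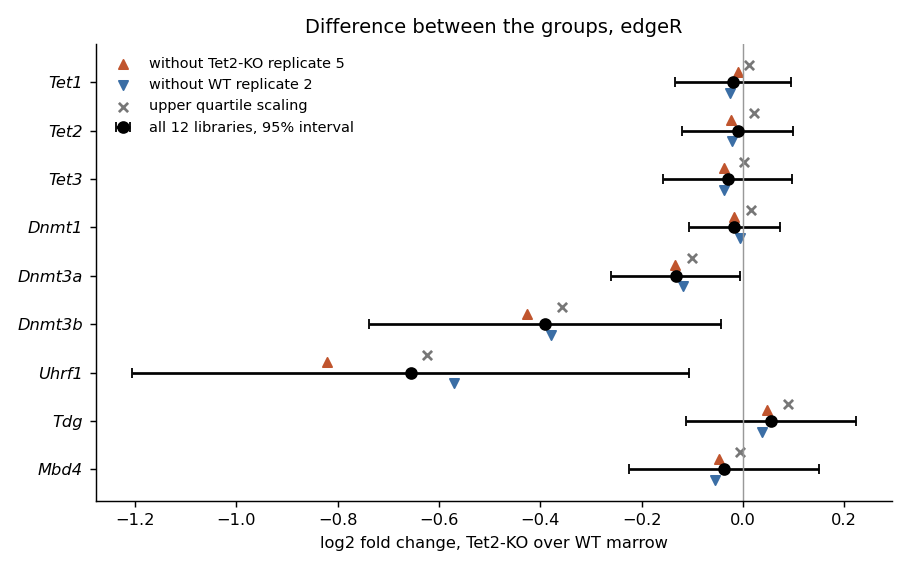
Log2 fold change of each gene (x axis, Tet2-KO over WT) from edgeR, with its 95% interval for all 12 libraries (black), and the value with upper quartile scaling or with 1 library left out (coloured or grey marks). The intervals of Uhrf1, Dnmt3b and Dnmt3a lie below 0 and those of the other 6 genes span it, and the marks of upper quartile scaling lie on the other side of 0 for Tet1, Tet2, Tet3 and Dnmt1.

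Tet2, the gene deleted in the CD45.2 donor cells, lies at chr3:133463679-133545139 on the minus strand (GRCm38). Its lowest, median and highest levels were 126.4, 129 and 147 CPM among WT brains, and 117, 134 and 137 CPM in the Tet2-KO group. The groups overlapped almost completely, with 1 Tet2-KO brain, replicate 1, below every WT brain and none above. The log2 fold change was -0.0097 (SE 0.051, edgeR adjusted p = 0.934), and its 95% interval ran from -7.93% to 7.15% of the WT level. Counts are summed over all exons of the gene, so a partial transcript from the deleted allele would be counted too, and the level of Tet2 in these brains does not check the group labels. Of the exon bases of Tet2, 0.25% overlap an antisense gene, Gm42567, and the sources used here do not say whether counting used the strand.

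Tet3, the family member best known from the egg and from neurons, lies at chr6:83362373-83459084 on the minus strand. It ran from 154 to 180.4 CPM among WT brains (median 172) and from 147 to 184 CPM in the Tet2-KO group (median 166). The highest and the lowest of all 12 brains were both in the Tet2-KO group, replicates 2 and 6. Its log2 fold change was -0.030 (SE 0.060, edgeR adjusted p = 0.809), with an interval from -10.3% to 6.99%.

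Tet1, which has a CXXC domain that binds unmethylated CpG, lies at chr10:62804570-62908996 on the minus strand. It ran from 41.1 to 48.2 CPM among WT brains (median 42.2) and from 39.5 to 46.6 CPM in the Tet2-KO group (median 42.0). WT replicate 6 stood above the other 11 brains. The log2 fold change was -0.020 (SE 0.054, edgeR adjusted p = 0.863), and the interval ran from -8.91% to 6.78%. The sign of all 3 TET fold changes turned positive with upper quartile scaling, where they were 0.013 for Tet1, 0.022 for Tet2 and 0.0026 for Tet3, so these data give no direction for any of them.

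Dnmt1, the maintenance enzyme, lies at chr9:20907209-20959888 on the minus strand. It was the steadiest member across brains, from 68.3 to 72.4 CPM among WT brains (median 69.2) and from 63.0 to 72.5 CPM in the Tet2-KO group (median 69.6). Only Tet2-KO replicate 6 lay below the WT range, and only Tet2-KO replicate 3 above it. The log2 fold change was -0.017 (SE 0.042, edgeR adjusted p = 0.852), or 0.017 with upper quartile scaling, and the interval ran from -7.12% to 5.22%.

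Dnmt3a, the main de novo enzyme of the adult brain, lies at chr12:3806007-3914443 on the plus strand. Its levels were 161, 176 and 184 CPM (lowest, median, highest) among WT brains and 136, 163 and 174 CPM in the Tet2-KO group. Of the Tet2-KO brains, 3 lay below every WT brain, the lowest being replicate 6, and the other 3 lay inside the WT range. The means were 175 ± 8.79 and 159 ± 13.9 CPM (SD, n = 6 each), a log2 fold change of -0.13 (SE 0.060) that did not pass the adjusted threshold (edgeR adjusted p = 0.200). An exact permutation test (two-sided) of the log2 levels, over all 924 assignments of the brains to the groups, gave p = 0.0433 without adjustment, where 0.00216 is the smallest p that 6 against 6 allows. Dnmt3a shares 0.8% of its exon bases with the antisense gene Dnmt3aos.

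Dnmt3b, the other de novo enzyme and in the adult brain the scarce one, lies at chr2:153649450-153687730 on the plus strand. It rests on 23 to 32 counts per WT library and 18 to 39 per Tet2-KO library. Its levels were 1.65, 2.22 and 2.41 CPM (lowest, median, highest) among WT brains and 1.12, 1.67 and 2.01 CPM in the Tet2-KO group. Tet2-KO replicates 1, 3 and 6 lay below every WT brain, and the lowest WT brain, replicate 3, lay inside the range of the Tet2-KO group. The log2 fold change was -0.39 (SE 0.16, edgeR adjusted p = 0.177), and the exact permutation p was 0.0173. The interval, from -40.0% to -2.89%, is wide because so few reads carry it.

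Uhrf1, which recruits DNMT1 to freshly replicated DNA and is made mainly by dividing cells, lies at chr17:56303321-56323486 on the plus strand. It rests on 36 to 68 counts per WT library and 17 to 66 per Tet2-KO library. In the WT group the 6 brains were at 4.36, 4.88, 3.95, 2.33, 3.96 and 3.41 CPM, in the order of their replicate numbers. In the Tet2-KO group they were at 1.05, 2.09, 2.22, 3.39, 3.92 and 1.85 CPM. Tet2-KO replicates 1, 2, 3 and 6 were thus below every WT brain, while replicates 4 and 5 lay among the WT brains and WT replicate 4 lay among the Tet2-KO brains.

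The means of Uhrf1 were 3.82 ± 0.874 CPM with WT marrow and 2.42 ± 1.05 CPM with Tet2-KO marrow (SD, n = 6 each). The log2 fold change was -0.66 (SE 0.26, edgeR adjusted p = 0.161), the most negative of the 9, and the exact permutation p was 0.0238. Without Tet2-KO replicate 5 the log2 fold change was -0.82 and the edgeR adjusted p was 0.0451, the only call of a member under any setting tried, in a fit that called 11% of all its tested genes and 7.3% as lower. Over the fits with 1 library left out, the adjusted p of Uhrf1 lay between 0.0451 and 0.329 and its log2 fold change between -0.82 and -0.50. In bulk tissue, fewer cells of a type and less RNA per cell cannot be told apart.

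The promoters of Uhrf1, Dnmt1 and Dnmt3b are shown because, of all pairs of the 9 genes, the levels of the first and the last were the most closely related across brains, as described below, and because DNMT1 and UHRF1 act in the same step. The windows are RefSeq sequences (GRCm38.p6) from 250 bases before to 50 bases after a transcript start, and where a gene has several windows the one with the most CpG dinucleotides was taken. Capitals mark 8 letters that fit the binding site of the E2F factors, which drive genes of DNA replication (TTTCCCGC, TTTCGCGC, TTTGCCGC or TTTGGCGC), and the CCAAT box, each searched on both strands, and the 2 motifs overlap each other nowhere in these windows, although in the Dnmt1 window CCAAT and its reverse complement share letters.
Uhrf1 promoter, chr17:56304063-56304362, plus strand: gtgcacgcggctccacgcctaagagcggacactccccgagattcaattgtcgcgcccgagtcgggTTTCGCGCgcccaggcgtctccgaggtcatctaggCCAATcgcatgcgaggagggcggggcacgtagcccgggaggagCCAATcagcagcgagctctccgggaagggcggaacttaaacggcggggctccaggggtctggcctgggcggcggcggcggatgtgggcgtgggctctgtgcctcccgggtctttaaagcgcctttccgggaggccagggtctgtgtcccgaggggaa
Dnmt1 promoter, chr9:20952574-20952873, minus strand: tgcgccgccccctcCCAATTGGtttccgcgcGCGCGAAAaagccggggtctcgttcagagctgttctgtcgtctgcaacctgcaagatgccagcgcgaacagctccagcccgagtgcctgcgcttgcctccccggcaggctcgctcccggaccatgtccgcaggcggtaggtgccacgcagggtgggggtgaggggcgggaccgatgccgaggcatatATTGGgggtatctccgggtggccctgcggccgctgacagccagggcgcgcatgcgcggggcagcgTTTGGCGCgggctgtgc
Dnmt3b promoter, chr2:153649199-153649498, plus strand: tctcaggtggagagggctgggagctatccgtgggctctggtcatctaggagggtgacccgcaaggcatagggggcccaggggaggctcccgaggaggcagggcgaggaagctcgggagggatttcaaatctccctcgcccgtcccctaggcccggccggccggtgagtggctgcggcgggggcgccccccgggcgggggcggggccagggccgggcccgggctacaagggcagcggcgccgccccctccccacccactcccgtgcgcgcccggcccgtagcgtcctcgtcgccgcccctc

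In the Uhrf1 window the E2F-type letters TTTCGCGC begin at -185 and CCAAT at -150 and -107 relative to the start. The Dnmt1 window holds the E2F-type letters at -219, on the opposite strand, and at 33 after the start, and CCAAT in 3 places. No other member's window of this kind held the E2F-type letters, which stood in 2.40% of the 27025 genes' windows and in 4 of the 14 genes of the cycling list below that have one. The CCAAT letters stood in 5 of the 9 members' windows, against 37.4% of all. The other windows of Uhrf1 and Dnmt1, at other transcript starts, held no E2F-type letters, although some held CCAAT. A match of letters is a description and no evidence that a factor binds there. The 9 windows held between 17 CpG dinucleotides (Tet1) and 57 (Tet2), against a median of 8 over the windows chosen in the same way, the most CpG-rich of each of the 27025 genes.

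The glycosylases varied little between the groups. Tdg, at chr10:82629828-82650799 on the plus strand, was at 18.6, 19.4 and 24.6 CPM (lowest, median, highest) among WT brains and at 18.7, 20.95 and 23.4 CPM in the Tet2-KO group. All 6 Tet2-KO brains lay inside the WT range, and the highest of all, WT replicate 5, was also the WT brain with the most Tet2. Its log2 fold change was 0.055 (SE 0.079, edgeR adjusted p = 0.720), the only positive one of the 9, with an interval from -7.53% to 16.8%. Mbd4, at chr6:115840697-115853371 on the minus strand, ran from 9.93 to 12.7 CPM (median 11.2) among WT brains and from 9.77 to 13.0 CPM (median 11.1) in the Tet2-KO group, which overlapped almost completely. Its log2 fold change was -0.037 (SE 0.088, edgeR adjusted p = 0.842). Tdg shares 6.83% of its exon bases with Glt8d2 on the other strand and Mbd4 shares 5% with the antisense gene Gm44206, so a small part of either count may belong to the neighbour.

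Levels were compared between genes per kb of annotated exon. By this scale Tet3 (10.2 ± 0.604 CPM per kb), Dnmt3a (10.5 ± 0.528) and Dnmt1 (9.47 ± 0.247) stood highest in the WT group (mean ± SD, n = 6). Tet2 followed at 7.81 ± 0.450 CPM per kb. Then came Tdg at 3.78 ± 0.418, Tet1 at 2.78 ± 0.166 and Mbd4 at 2.16 ± 0.207 CPM per kb. Uhrf1 was at 0.896 ± 0.205 and Dnmt3b, the lowest, at 0.421 ± 0.0521 CPM per kb.

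Per kb of annotated exon, the order of the top 3 genes was not resolved. Tet3 exceeded Dnmt3a in 7 of the 12 brains and Dnmt3a exceeded Dnmt1 in 10, with ratios from 0.905 to 1.09 and from 0.954 to 1.18. Each later step of the order held in all 12 brains, the closest being Dnmt1 over Tet2, by 1.06 to 1.35 times. The order depends on the length used. Per kb of the longest transcript, Dnmt3a exceeded both Tet3 and Dnmt1 in all 12 brains, Tet2 exceeded Dnmt1 in all 12, and Tet1 exceeded Mbd4 in only 2.

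Within the TET family, Tet3 made up 49.1% ± 1.67 of the summed level per kb in the WT group, Tet2 37.5% ± 1.08 and Tet1 13.4% ± 1.19 (SD, n = 6). With Tet2-KO marrow the shares were 48.8% ± 2.53 for Tet3, 37.8% ± 1.89 for Tet2 and 13.4% ± 0.903 for Tet1, each within 1 SD of the WT share. The TET family in these brains was thus mostly Tet3 and Tet2, in proportions that differed between the groups by less than the spread between brains.

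Within the methyltransferases, Dnmt3a and Dnmt1 shared nearly all of the level. Dnmt3a made up 51.5% ± 1.32 among WT brains and 49.7% ± 1.17 in the Tet2-KO group, and Dnmt1 46.5% ± 1.34 and 48.7% ± 1.23. Dnmt3b made up 2.06% ± 0.245 in the WT group, between 1.64% and 2.30%, and 1.65% ± 0.324 in the Tet2-KO group, between 1.17% and 1.97%. The ranges of the groups overlapped for all 3 genes, and no test was made of the shares.

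**Figure D3:**
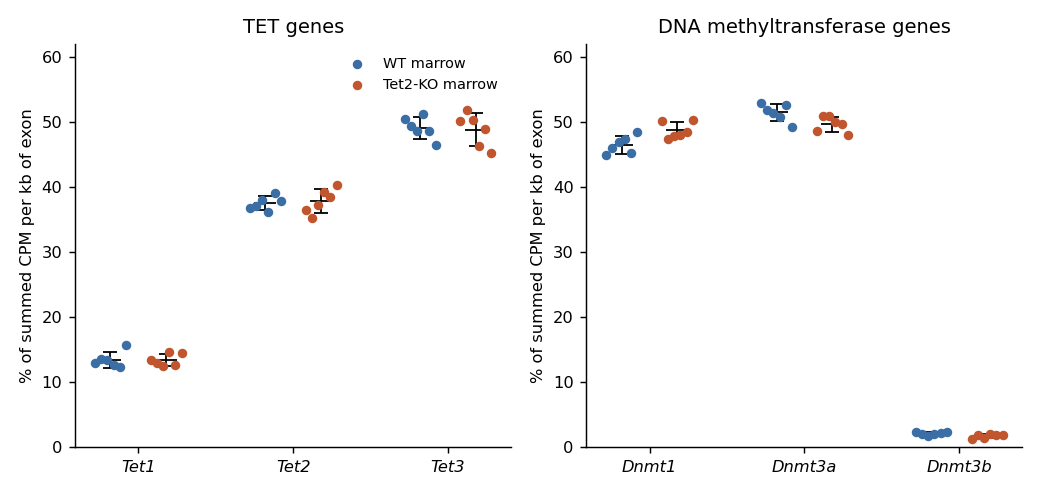
Share of each gene (y axis, percent) in the summed CPM per kb of exon of its family, the TET genes on the left and the DNA methyltransferase genes on the right; points are single brains, bars the mean ± SD of 6. Tet3 and Tet2 make up most of the first family and Dnmt3a and Dnmt1 nearly all of the second, and the points of the groups overlap for every gene.

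Pearson correlations of log2 CPM between the 9 genes were computed over the 12 brains for all 36 pairs, with permutation tests of 100000 resamples. The resamples shuffled all 12 brains regardless of group, so a p also takes in any group difference that both genes share. None of the pairs passed after Benjamini-Hochberg adjustment over the pairs. The strongest was between Dnmt3b and Uhrf1 (r = 0.81, permutation p = 0.00162, adjusted 0.0583), with Spearman's rho = 0.741 (permutation p = 0.00783, adjusted 0.267). Within the groups r was 0.14 among the WT brains and 0.89 among the Tet2-KO brains, and without the 2 brains farthest from the median of Dnmt3b, Tet2-KO replicates 1 and 3, it was 0.59. The next was between Tet3 and Dnmt3a (r = 0.75, permutation p = 0.00375, adjusted 0.0675), with rho = 0.664 (permutation p = 0.0211, adjusted 0.267), at 0.69 among WT and 0.87 among Tet2-KO brains and 0.50 without Tet2-KO replicate 6 and WT replicate 6. The only negative one among the 5 with an unadjusted p below 0.05 was Tet1 with Tdg (r = -0.59, permutation p = 0.0439, adjusted 0.316), with rho = -0.622 (permutation p = 0.0354, adjusted 0.319), at -0.26 among WT and -0.96 among Tet2-KO brains, and at -0.51 without WT replicate 6 and Tet2-KO replicate 4.

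Each of the 9 genes was then set against the summed CPM of 8 lists of cell markers, an analysis chosen after seeing the data. Of these 72 relations, 10 passed an adjusted permutation p of 0.05 by Pearson's r, 5 of Uhrf1 and 5 of Dnmt3b, and 2 passed by Spearman's rho as well, both of Uhrf1. The first was with 17 genes of cycling cells, such as Mki67 and Top2a (r = 0.93, permutation p = 1e-05, the smallest the resamples can give, adjusted 0.00072), with rho = 0.937 (permutation p = 3e-05, adjusted 0.00216). This relation was seen within each group, at r = 0.71 among WT and 0.96 among Tet2-KO brains, and at 0.87 without Tet2-KO replicates 1 and 6. The second was with 11 genes of infiltrating myeloid cells, such as Ccr2 and Lyz2 (r = 0.92, permutation p = 8e-05, adjusted 0.00264), with rho = 0.874 (permutation p = 0.00051, adjusted 0.0184). There r was 0.50 among WT and 0.99 among Tet2-KO brains, and 0.81 without Tet2-KO replicates 1 and 6. Lyz2 and Cd68, with WT means of 496 and 122 CPM, made up most of this sum, against 15.1 CPM for Ccr2. The list is named for the cells it was chosen for, and its sum cannot separate infiltrating from resident myeloid cells.

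Uhrf1 was also higher where the sum of the 6 microglia markers was higher (r = 0.90, permutation p = 0.00011, adjusted 0.00264), with rho = 0.762 (permutation p = 0.00521, adjusted 0.0715). There r was 0.61 among WT and 0.97 among Tet2-KO brains, and 0.74 without Tet2-KO replicates 1 and 6. Uhrf1 was lower where the sum of the 8 neuronal markers was higher (r = -0.81, permutation p = 0.00192, adjusted 0.0230), with rho = -0.762 (permutation p = 0.00554, adjusted 0.0715). There r was -0.49 among WT and -0.87 among Tet2-KO brains, and -0.74 without the same pair. The fifth relation of Uhrf1 was with the lymphocyte markers (r = 0.74, permutation p = 0.00670, adjusted 0.0482), with rho = 0.755 (permutation p = 0.00663, adjusted 0.0715). For these r was 0.11 among WT and 0.74 among Tet2-KO brains, and 0.68 without the same pair. Dnmt3b was most closely related to the infiltrating myeloid genes (r = 0.87, permutation p = 0.00051, adjusted 0.00918), with rho = 0.741 (permutation p = 0.00795, adjusted 0.0715), at 0.40 among WT and 0.86 among Tet2-KO brains and 0.71 without Tet2-KO replicates 1 and 3. The marker sums come from the same 12 libraries as the 9 genes and move with each other, so these are not separate lines of evidence. Each permutation shuffled all 12 brains regardless of group, so its p also takes in a group difference that gene and markers share. For Dnmt3b, r among WT brains was 0.25 with microglia, 0.23 with cycling, 0.35 with lymphocyte and -0.26 with neuronal markers.

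**Figure D4:**
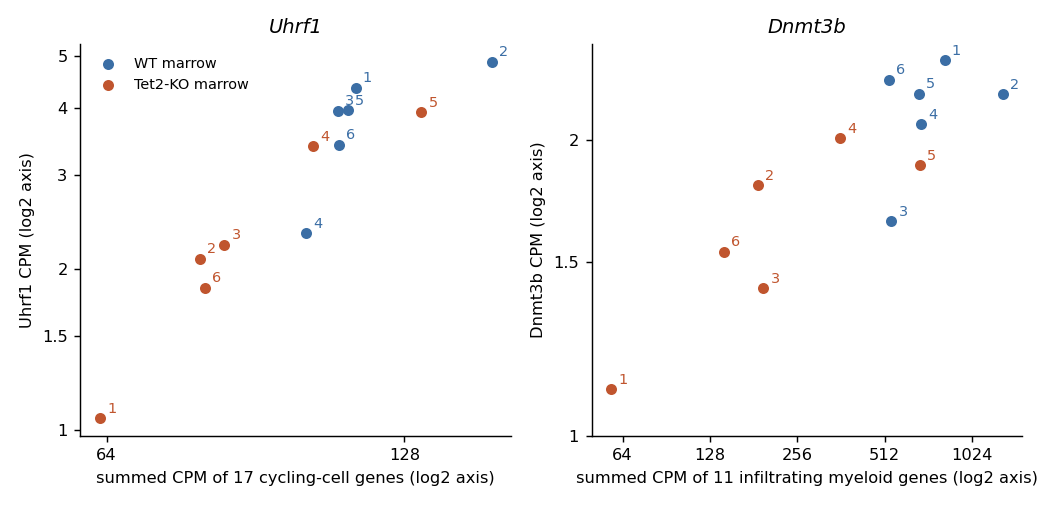
Left, Uhrf1 CPM (y axis) against the summed CPM of 17 cycling-cell genes (x axis); right, Dnmt3b CPM against the summed CPM of 11 infiltrating myeloid genes, all axes on a log2 scale, each point 1 brain with its replicate number. The Uhrf1 points rise along 1 line through both groups (r = 0.93), and Tet2-KO replicate 1 is lowest on both axes in both panels.

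The marker sums themselves differed between the groups as follows, and their part in the values of Uhrf1, Dnmt3b and Dnmt3a was not tested. The cycling list summed to 102 to 157 CPM among WT brains and to 63.0 to 133 CPM in the Tet2-KO group, with no gene at 0 in any library. All 17 of its genes were lower in the Tet2-KO group, as were 47.7% of all tested genes. Of the 17, 4 had an unadjusted p below 0.05, where 12.2% of all tested genes were lower by that measure, and none was called. The median log2 fold change was -0.42 beside 0.01 over all tested genes, and it was -0.28 without WT replicate 2. Among its genes, Rrm2, a subunit of ribonucleotide reductase, was at -0.73 on the log2 scale (edgeR adjusted p = 0.115), the proliferation marker Mki67 at -0.71 (adjusted p = 0.157), and the replicative helicase subunit Mcm7 at -0.23 (adjusted p = 0.136). Uhrf1, at -0.66, lay within the range of these genes, while Dnmt1, at -0.017, lay above all 17, the nearest being Plk1 at -0.028.

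The infiltrating myeloid list summed to 528 to 1306 CPM among WT brains and to 58.4 to 678 CPM in the Tet2-KO group, and none of its genes was at 0. Of its 11 genes 10 were lower at an unadjusted p below 0.05, beside 12.2% of all tested genes. Of these, 2 were called, the neutrophil genes S100a9 (log2 fold change -2.84) and S100a8 (-2.16), both at an edgeR adjusted p of 0.0364. With 1 library left out both were called in the fits without WT replicate 2, WT replicate 6 or Tet2-KO replicate 5, and S100a9 also without WT replicate 5, while the other 8 fits called neither (highest edgeR adjusted p 0.191 for S100a8 and 0.189 for S100a9). With the replicate block the adjusted p was 0.144 for S100a8 and 0.168 for S100a9, and a minimum of 10 counts in every library left both untested. The DESeq2 Wald test called both (adjusted p 2.6e-08 for S100a8 and 1.7e-07 for S100a9), as did limma-voom (adjusted p 0.0096 and 0.0081). In edgeR both were also called with DESeq2 size factors, upper quartile scaling or no filter on low counts. The same held with WT replicate 2 and Tet2-KO replicate 5 both left out. Plac8 followed at -1.91 (edgeR adjusted p = 0.123), and the median of the list was -1.78. The 8 lymphocyte markers summed to 9.91 to 17.3 CPM with WT marrow and to 5.30 to 9.72 CPM with Tet2-KO marrow. Cd3d, Cd3g and Ms4a1 were among those at 0 in some libraries. Only 3 of the markers were tested, Cd3e (-1.32), Cd8a (-1.02) and Cd4 (-0.39), with a median of -1.02. Each was below an unadjusted p of 0.05, beside 12.2% of all tested genes that were lower by that measure, and none was called. The paper counted macrophages and T cells by immunostaining at the same time after stroke, and reported similar numbers in both groups. The sums of the myeloid and lymphocyte lists are RNA levels, and their relation to cell numbers was not tested.

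The resident cells are the bulk of this tissue. All 8 neuronal markers were higher in the Tet2-KO group at an unadjusted p below 0.05, beside 10.8% of all tested genes, and none was called. Rbfox3 was at a log2 fold change of 0.31, Syt1 at 0.28 and Tubb3 at 0.19. The 8 markers summed to 3872 to 5459 CPM among WT brains and to 5050 to 6574 CPM in the Tet2-KO group. The 6 microglia markers summed to 562 to 1011 CPM among WT brains, the highest being replicate 2 and the next 640 CPM. In the Tet2-KO group they summed to 283 to 737 CPM. Of them 5 were lower and 1 higher, among them Cx3cr1 (-0.34), Sall1 (-0.17), Siglech (-0.0034) and P2ry12 (0.047). None was below an unadjusted p of 0.05. Of 6 astrocyte markers Slc1a2 alone was, at 0.13, beside Gja1 at -0.20 and Aqp4 at -0.40, with sums from 5842 to 6882 CPM and from 5644 to 7036 CPM. Of 6 oligodendrocyte lineage markers Pdgfra alone was, at -0.38, beside Cspg4 at -0.11 and Mobp at 0.087, with sums from 4497 to 5900.3 CPM and from 4140 to 5760.3 CPM. Of 5 endothelial markers 3 were, Cldn5 at -0.45, Kdr at -0.39 and Cdh5 at -0.37, with sums from 178 to 228 CPM and from 161 to 197 CPM. None of these genes was called, and at an unadjusted p below 0.05 12.2% of all tested genes were lower and 10.8% higher. The median log2 fold changes were 0.23 for the neuronal, -0.15 for the microglia, -0.12 for the astrocyte, -0.02 for the oligodendrocyte lineage and -0.37 for the endothelial markers. Without WT replicate 2 these medians were 0.17, -0.037, -0.035, 0.030 and -0.29, in the same order.

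The partners of the 9 genes were described by lists of genes with a related role. Among 8 tested partners of the TET enzymes, the 3 Gadd45 genes stood out by their values. They encode stress-induced adaptors that have been linked to active demethylation. Gadd45b was at 7.55 ± 1.38 CPM in WT brains, against 4.64 ± 0.664 CPM in Tet2-KO brains (SD, n = 6 each), and all 6 Tet2-KO brains lay below every WT brain, as in 0.641% of tested genes, although its log2 fold change of -0.70 did not pass adjustment (edgeR adjusted p = 0.0955). Gadd45a was at -0.55 (edgeR adjusted p = 0.110) and Gadd45g at -0.41 (adjusted p = 0.165). All 3 Gadd45 genes had an unadjusted p below 0.05, beside 12.2% of all tested genes that were lower by that measure. The other 5, among them Ogt, Cxxc4 and Sirt1, had an unadjusted p above 0.05, and the median of the list was 0.010, the same as over all tested genes.

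Among the 11 readers of methylated DNA, 1 was lower and 3 higher where the unadjusted p was below 0.05. Over all tested genes the shares were 12.2% lower and 10.8% higher. None of the readers was called, and their median log2 fold change was 0.05. Among those higher were Mbd5 at 0.17 (edgeR adjusted p = 0.135) and the zinc finger gene Zbtb38 at 0.089 (adjusted p = 0.175). The one lower was Uhrf2, the paralog of Uhrf1, at -0.11 (adjusted p = 0.200), a gene named here after its values were seen. Zbtb38 ran from 101 to 108 CPM among WT brains and from 108 to 116 CPM in the Tet2-KO group, and the lowest Tet2-KO brain lay under the highest WT brain.

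Among the 10 tested partners of the methyltransferases none was below an unadjusted p of 0.05, and the median was -0.04. Over all tested genes 12.2% were lower and 10.8% higher at that p. The nearest were Pcna, the replication clamp that DNMT1 and UHRF1 work beside, at -0.17 on the log2 scale (edgeR adjusted p = 0.295), Ehmt1 at -0.056 (adjusted p = 0.462) and Cdca7l at -0.37 (adjusted p = 0.473). Dnmt3l and Dppa3, which act in germ cells and the early embryo, did not pass the filter on low counts.

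Base excision repair acts after TDG and MBD4. Of its 14 genes 1 was below an unadjusted p of 0.05, Neil3, a glycosylase of dividing cells, at -1.07 (edgeR adjusted p = 0.168). The shares over all tested genes were 12.2% lower and 10.8% higher. Neil3 was scarce, with means of 1.08 CPM in WT and 0.532 CPM in Tet2-KO brains. It rests on 9 to 24 counts per WT library and 2 to 17 per Tet2-KO library. The median of the list was -0.01. Ung was at 0.20 (edgeR adjusted p = 0.466). Of the 3 tested cytidine deaminases, Apobec1 was at -1.31 (adjusted p = 0.153), Apobec3 at -0.71 (adjusted p = 0.246) and Apobec4 at 0.042 (adjusted p = 0.906). The median of the 3 was -0.71. For Apobec1 and for Apobec3, 5 of 6 Tet2-KO brains lay below every WT brain, a pattern whose share over all tested genes was not computed. The cause of these values was not tested.

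The TET enzymes need 2-oxoglutarate and the methyltransferases need S-adenosylmethionine. Of 17 genes that make or use these cofactors, 3 had an unadjusted p below 0.05, 2 of them with a lower mean in the Tet2-KO group. By that measure 12.2% of all tested genes were lower and 10.8% higher. None of the 17 was called, and their median was -0.01. Idh1, which makes 2-oxoglutarate in the cytosol, was at 40.8 ± 2.32 CPM in WT brains, against 32.2 ± 4.76 CPM in Tet2-KO brains (SD, n = 6 each). Its log2 fold change was -0.34 (edgeR adjusted p = 0.110). For Idh1 too, 5 of 6 Tet2-KO brains lay below every WT brain, without a share over all tested genes to set beside it. Mat2b, a subunit of the enzyme that makes S-adenosylmethionine, was at 0.14 (edgeR adjusted p = 0.194). The other 4 isocitrate dehydrogenase genes, the succinate dehydrogenase subunits and Fh1 all had an unadjusted p above 0.05.

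**Figure D5:**
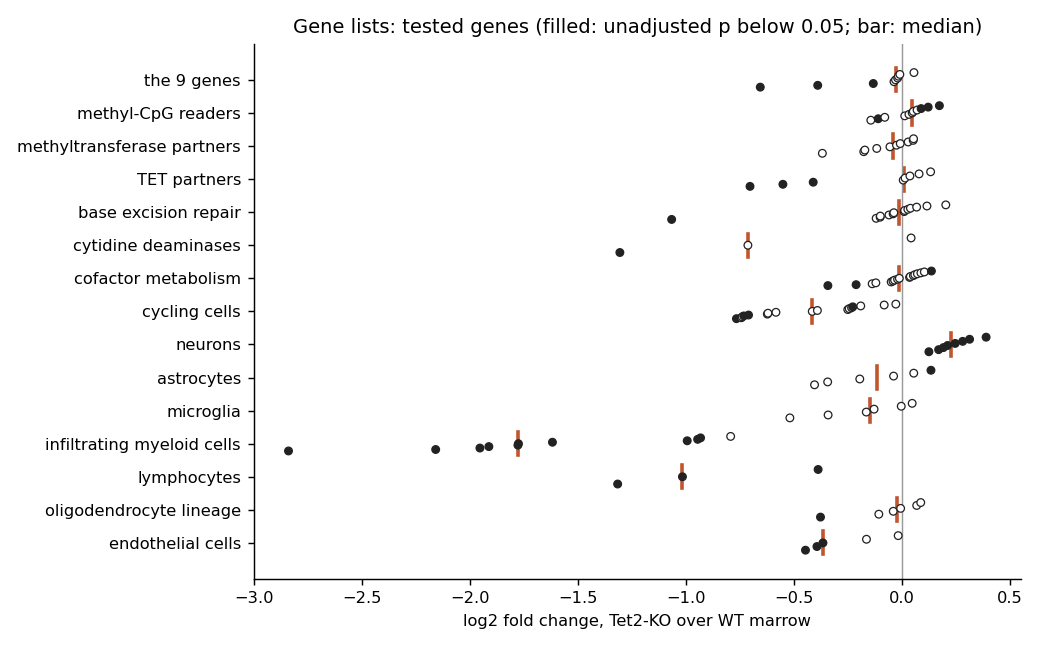
Log2 fold change (x axis, Tet2-KO over WT) of every tested gene of each list (y axis); each circle is a gene, filled where its unadjusted p was below 0.05, and the bar is the median of the list. The 9 genes lie close to 0 apart from Uhrf1, Dnmt3b and Dnmt3a, the cycling list lies below 0 as a whole, and the infiltrating myeloid list lies farthest below.

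For each of the 9 genes, the 3 genes with the most similar pattern across brains were found among 19101 genes with a mean of at least 1 CPM, by Pearson's r of log2 CPM after subtraction of each group's mean, so that the comparison of the groups plays no part. With 12 libraries and this many genes, high values of r arise easily, and they are given as a description. For Uhrf1 they were Casp8 (r = 0.95), Top2a (0.95) and Bub1 (0.94), and both of the latter are genes of dividing cells from the cycling list. For Dnmt3b they were Gm13067 (0.94), Snx33 (0.89) and Pmaip1 (0.88). For Dnmt3a they were Phb2 (0.95), Trim27 (0.95) and Rps14 (0.93), and for Dnmt1 Ddx39b (0.94), Spsb3 (0.93) and Gipc1 (0.92).

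Among the TET genes, Tet2 was most like Smc6 (0.90), Gm38071 (0.87) and Galnt6os (0.86), Tet3 most like Ccdc117 (0.91), Tiparp (0.91) and Klf2 (0.90), and Tet1 most like Gm13617 (0.89), Plin4 (0.87) and 4833422M21Rik (0.87). Tdg was most like the nuclear RNA Malat1 (0.93), followed by Gm43487 (0.87) and Nsun2 (0.85), and Mbd4 most like Gm37674 (0.93), Gm13375 (0.89) and Abi1 (0.88). None of the 9 genes was among the 3 most similar genes of another.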

How the data were processed

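RNA was extracted from 12 brains, depleted of ribosomal RNA and sequenced as paired reads. Per the labels, the authors used Trimmomatic 0.36, STAR 2.5.2b, the mouse build mm10 and featureCounts of Subread 1.5.2, and deposited whole-number read counts per gene, not normalized, for 49315 Ensembl identifiers. The annotation release and the strand setting were not given in the sources used here. Symbols, exon lengths and coordinates came from GENCODE M21 (GRCm38, the same assembly) for 48970 genes, and promoters of all 9 genes from RefSeq (GRCm38.p6).

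From the deposited counts, CPM and tests were computed in R 4.3.3 with edgeR 4.0.16 (filterByExpr, TMM, robust quasi-likelihood fit over 12 libraries, no covariates, Benjamini-Hochberg threshold 0.05). Standard errors are the log2 fold change over the square root of F. Permutation tests used log2 of CPM plus 0.1, and correlations log2 CPM with a prior count of 2 (scipy 1.17.1). Groups came from the titles of the labels, 6 mice each. Libraries of one group differed by more than sampling noise (chi-square per degree of freedom 1.91 to 24.5), so each counts as 1 sample. Same-numbered mice of the groups did not deviate together and were not paired. Gene levels rest on the counts given, and intervals of levels as low as those of Dnmt3b and Uhrf1 are wide.

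Besides the 9 genes, the text names the 3 genes of each list with the smallest p, any past the threshold, and the genes most like each member, apart from a few list examples given without a p. The single values of some list genes are not reported here. The 9 genes and the lists were chosen with earlier results of these data known. The alternatives were DESeq2 1.42.0, limma 3.58.1 (voom with quality weights), other scalings and filters, a replicate block, another pseudocount, transcript length, and each library left out in turn. Protein sequences were not used here.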

Additional observations from a re-analysis of the deposited data

Results flagged for a closer look

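A brain was marked where its gap to the nearest of its group exceeded Dixon's limit for 6 samples, 0.625 of the group's range, a limit that chance passes in about 1 in 20 groups. Of 94 groups, 16 held such a brain, of which 4 were among the 18 groups of the 9 genes. WT replicate 6 had 48.2 CPM of Tet1, with the other 5 at or below 42.7 CPM. WT replicate 5 had 146.7 CPM of Tet2, with the next at 132 CPM, and 24.6 CPM of Tdg, with the next at 20.7 CPM. Tet2-KO replicate 6 had 63.0 CPM of Dnmt1, with the next at 69.2 CPM.

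All 12 other marks fell on WT replicate 2 (9) or Tet2-KO replicate 5 (3). WT replicate 2 was highest in its group for Aqp4 (528 CPM), Cx3cr1 (300.2), Pdgfra (134), Cspg4 (76.0), Apobec1 (57.9) and Pcna (31.1 CPM). It was lowest for Rbfox3 (126 CPM), Syt1 (801 CPM) and Slc1a2 (3686 CPM). Tet2-KO replicate 5 was highest in its group for Plac8 (5.02 CPM) and Cdca7l (1.88 CPM) and lowest for Slc1a2 (4016 CPM). Without WT replicate 2 the log2 fold change of Uhrf1 was -0.57 (edgeR adjusted p = 0.329), and with both of these brains left out, an alternative added after seeing the data, it was -0.73 (edgeR adjusted p = 0.0825).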

How the results depend on the processing

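The number of genes called over all tested genes, 5, moved to 44 with no filter on low counts, to 902 with DESeq2, to 1863 with limma-voom and to 1554 with WT replicate 2 and Tet2-KO replicate 5 both left out. It was 0 with at least 10 counts in every library (edgeR, 4241 at an unadjusted p below 0.05) and 0 to 2257 with 1 library left out, the highest without Tet2-KO replicate 5, and with DESeq2 size factors or upper quartile scaling it was 5. Members called were 0 under each setting except that without Tet2-KO replicate 5, so 0 to 1 with 1 library left out. Members with an unadjusted p below 0.05 were 3, or 2 to 3 under the other settings and 0 to 3 with 1 library left out, the lowest without WT replicate 2 (0) and without WT replicate 1 or Tet2-KO replicate 1 (1 each).

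Labels number the mice 1 to 6 in both groups. The deviations of same-numbered mice correlated at -0.17 to 0.23, over 0.1 in 1 of 6 pairs, and 3 of 12 mice correlated best with their own number. The replicate block gave 0 genes called (edgeR, 4329 at an unadjusted p below 0.05) and no member.

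Signs near 0 turned. With upper quartile scaling the log2 fold changes were 0.013 (Tet1), 0.022 (Tet2), 0.0026 (Tet3) and 0.017 (Dnmt1), and with limma-voom 0.00067 (Tet3) and 0.00075 (Dnmt1). With 1 library left out they ran from -0.053 to 0.015 for Tet1, -0.027 to 0.024 for Tet2, -0.059 to 0.0051 for Tet3 and -0.030 to 0.0090 for Dnmt1. Dnmt3a, Dnmt3b, Uhrf1 and Mbd4 stayed negative and Tdg positive under every setting listed. Over all tested genes the median log2 fold change was 0.010 in the main fit and 0.043 with upper quartile scaling. The cause of the turned signs was not tested. The shares per kb with the longest transcript were 9.10% for Tet1, 43.5% for Tet2 and 47.4% for Tet3 in the WT group. The pseudocount of 0.5 CPM left each permutation p on the same side of 0.05. Among the 9 genes, depth limits Dnmt3b and Uhrf1 most, at 17 to 68 counts per library.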
